A study of Mus musculus with 18 samples.

Results

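The effect of Rab11-FIP1 loss on mouse colonic epithelium was compared between the proximal and the distal colon: FIP1 knockout minus wild type in the proximal colon, minus the same difference in the distal colon. The comparison used 12 of the 18 libraries of the series, 3 each of BL6J wild type (WT) distal, WT proximal, FIP1 knockout distal and FIP1 knockout proximal epithelium, and took in all 17692 genes that passed a filter on low counts, of 54532 in the table. The other 6 libraries were FIP2 knockout distal and proximal epithelium. The mice carried no treatment per the labels, and epithelial cells were taken mechanically from fresh colon in buffer with 30 mM EDTA before polyadenylated RNA was sequenced. Age, sex, the deleted part of the gene and any Cre line or promoter are not given in the sources used here, nor is it stated that the 3 libraries of a group came from 3 mice. The p-values therefore measure the spread between libraries, which may be technical.

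Rab11-FIP1 (also called RCP) and Rab11-FIP2 link the GTPase Rab11 to its partners on recycling endosomes, from which endocytosed receptors and transporters return to the cell surface. In a polarised epithelium such as that of the colon this route feeds the apical membrane. The proximal colon is the segment nearer the small intestine and carries more of the machinery for lipid, bile acid and foreign compound handling, while the distal colon is specialised for salt and water recovery.

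Levels are in CPM, that is counts brought to a common library total by TMM scaling, and group means carry the standard deviation (SD) over n = 3 libraries. Differences are log2 values, each with a standard error (SE). A gene was called when its adjusted p in edgeR's quasi-likelihood test (Benjamini-Hochberg method over all 17692 genes) was under 0.05. Called "lower" means that the knockout effect was less positive, or more negative, in the proximal than in the distal colon, and "higher" means the opposite. Positions are on GRCm38.

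Totals ran from 11193308 to 20606382 counts over the 12 libraries. WT proximal library 2 stood apart in carrying transcripts of forebrain neurons: Camk2a, a neuronal kinase, stood at 40.0 CPM there against 5.33 and 6.07 CPM in the other two WT proximal libraries. Mitochondrially encoded genes held 18.1% to 32.3% of counts in WT and 11.5% to 19.7% in FIP1 knockout libraries, with overlapping ranges in the segments. Rab11fip1 itself stood at 126, 92.0 and 128 CPM in WT distal, 50.6, 48.4 and 46.4 in knockout distal, 146, 93.0 and 175 in WT proximal, and 67.0, 82.5 and 53.0 in knockout proximal libraries. Its difference was -1.25 ± 0.22 (SE) in distal and -1.03 ± 0.22 in proximal colon, and the difference between segments was 0.22 ± 0.31 (adjusted p = 0.910). Since the deleted part of the gene is not known here, these counts do not check the genotype labels. Rab11fip2 had a difference between segments of -0.18 ± 0.38 (adjusted p = 0.942).

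The FIP1 knockout effect differed between segments for 114 genes, which is 0.644% of those tested. Of these, 90 were lower (0.509% of the tested genes) and 24 higher (0.136%). At an unadjusted p under 0.05 there were 1641 genes (9.28%), 627 higher and 1014 lower. The median over all tested genes was -0.0039, and 8898 of the 17692 lay below 0. The counts for gene lists below are to be read beside these counts over all tested genes. The same test was run on simulated data built from these libraries, without pairing, in which the changed genes averaged at least 1 CPM in WT. It found 13% of those with a 2-fold and 61% of those with a 4-fold difference between segments. For such genes a 2-fold difference was thus seldom detectable at this depth and replication. Recovery of genes at lower levels was not simulated.

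The 90 lower genes were sorted by the segments in which the knockout effect was called. A gene not called in a segment may still have changed there. The knockout effect was called only in the proximal colon, as a fall, for 40 of them, and only in the distal colon, as a rise, for 24. A rise in the distal colon met a fall in the proximal colon for 12. Both segments rose for 12, more so in the distal colon, and both fell for 2, Gbe1 and Ces1d. Of the 24 higher genes, 13 were called only in the distal colon, as a fall, and 6 only in the proximal colon, as a rise. Another 3 rose in both, and 2, Itln1 and B3gnt7, fell in the distal and rose in the proximal colon. Within the segments the knockout called 2886 genes in distal colon (16.3%; 1564 higher, 8.84%, and 1322 lower, 7.47%) and 2404 in proximal colon (13.6%; 1185 higher, 6.7%, and 1219 lower, 6.89%).

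**Figure D1:**
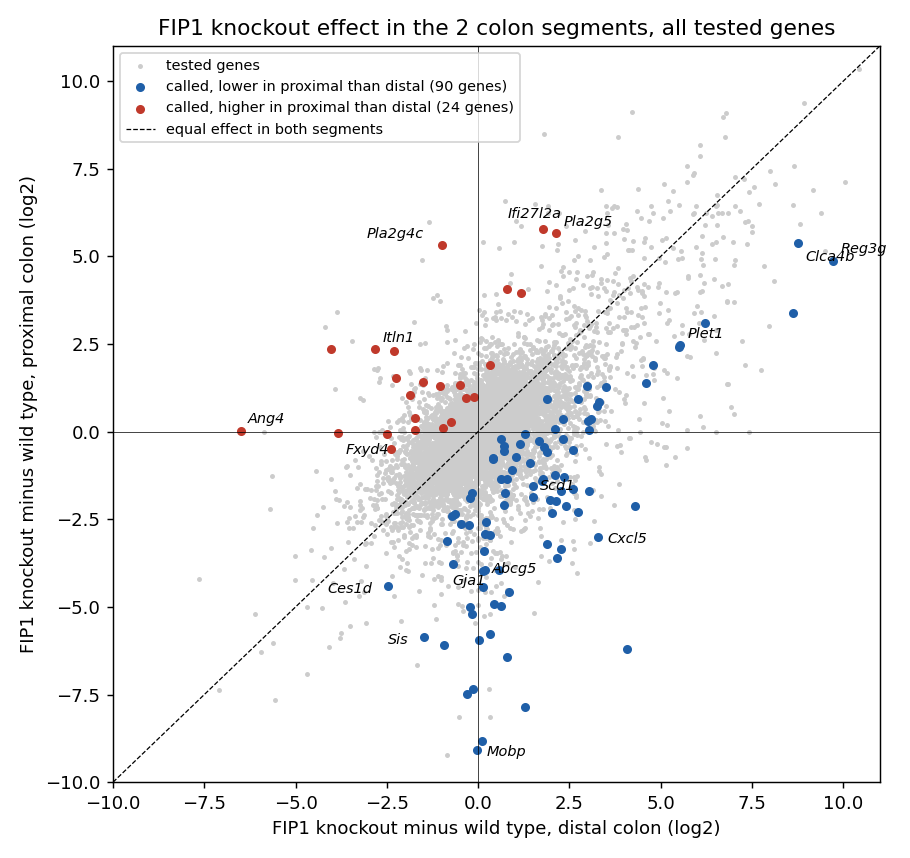
FIP1 knockout minus WT on the log2 scale in distal colon (horizontal axis) and in proximal colon (vertical axis) for each of the 17692 tested genes (grey), with the 90 called lower in blue and the 24 called higher in red. Points on the dashed line have the same effect in both segments, and most blue points lie below the line with a proximal value under 0.

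Written the other way round, the same numbers describe how far the segments differed in each genotype. In WT epithelium 82 of the 90 lower genes were higher in the proximal colon and none was higher in the distal colon, where 2893 of all tested genes (16.4%) differed between segments. In FIP1 knockout epithelium 21 of the 90 were still higher in the proximal colon, 23 were higher in the distal colon and 46 did not pass the test, where 1167 of all tested genes (6.6%) differed. For 15 of the 90 the segment difference was called in both genotypes with opposite sign. Of the 24 higher genes, 21 were higher in the distal colon in WT and 9 in FIP1 knockout. The segment differences come from the same 12 libraries as the calls, so these counts describe the called genes and do not support them.

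**Figure D2:**
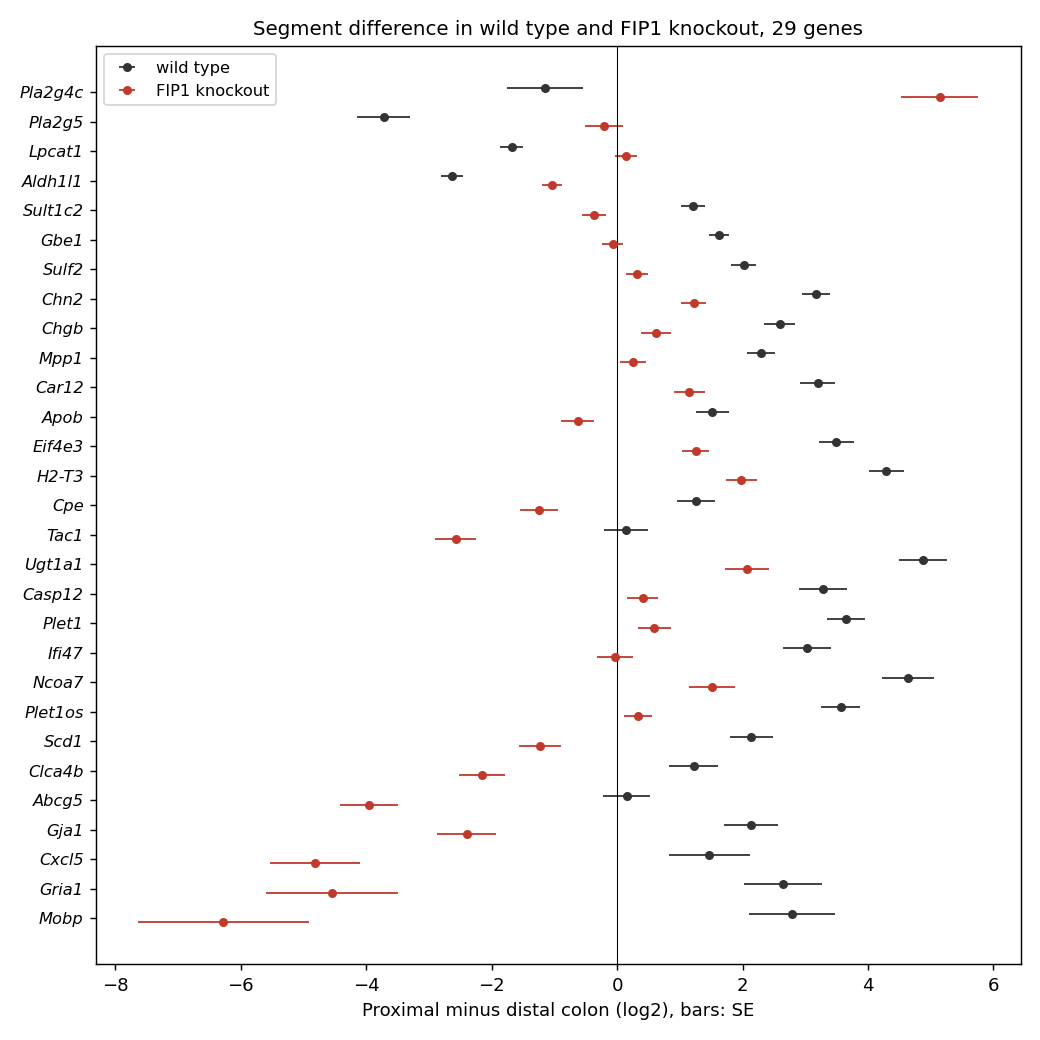
Proximal minus distal colon (log2, with SE) in WT (black) and in FIP1 knockout (red) for the 29 genes called whichever of the 12 libraries was left out. For Gja1, WT lies at 2.13 and FIP1 knockout at -2.40 and the error bars are apart.

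The calls rest on few libraries. Leaving out 1 of the 12 libraries at a time, 29 of the 114 genes were called in all 12 fits, 25 lower and 4 higher, and the other 85 lost their call in at least 1. These 29 genes, picked out after their values were seen, are described first within each group below. Without WT proximal library 2, 87 genes were called, of which 66 (15 higher, 51 lower) were among the 114.

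Of 19 tested genes on a list of bile acid, cobalamin and lipoprotein handling, 3 were called lower and none higher, and the median of the list was -0.86. The list fell in the proximal colon for 7 genes and rose for none, and in the distal colon 2 rose and none fell. Its summed level was 2577 to 3037 CPM in WT proximal libraries and 1394 to 2004 CPM in knockout proximal libraries, against 435.9 to 675.1 and 558 to 895.4 CPM in the distal colon.

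Abcg5 (chr17:84658234-84683011, minus strand) encodes a subunit of the transporter that pumps plant sterols and cholesterol back into the gut lumen. It stood at 17.1, 13.0 and 21.1 CPM in WT distal, 12.7, 14.3 and 28.8 in knockout distal, 25.8, 8.90 and 22.04 in WT proximal, and 1.80, 0.859 and 0.959 in knockout proximal libraries. The 3 knockout proximal libraries lay below all 9 others, while the distal groups overlapped. The difference was 0.12 ± 0.38 in distal and -3.99 ± 0.46 in proximal colon, and the difference between segments was -4.11 ± 0.59 (adjusted p = 0.00304). Its partner Abcg8, the other subunit, read 10.3, 3.63 and 12.1 CPM in WT proximal and 0.535, 0.787 and 0.654 CPM in knockout proximal libraries, with a difference between segments of -2.66 ± 0.66 that did not pass (adjusted p = 0.0760).

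Apob (chr12:7977648-8016835, plus strand), the structural protein of chylomicrons, measured 125, 78.0 and 154 CPM in WT distal and 79.7, 72.1 and 105 CPM in knockout distal libraries. In the proximal colon the WT libraries held 282, 335 and 406 CPM and the knockout libraries 41.4, 79.0 and 45.4 CPM. The WT excess of proximal over distal colon was thus absent in the knockout, with a difference between segments of -2.15 ± 0.37 (adjusted p = 0.00934). Cubn, the receptor for intrinsic factor with vitamin B12, had 46.4, 24.2 and 57.5 CPM in WT proximal and 3.27, 3.58 and 2.53 CPM in knockout proximal libraries, with all distal libraries between 0.824 and 2.14 CPM. Its difference between segments of -3.09 ± 0.58 (adjusted p = 0.0171) was lost without knockout proximal library 3 (-2.95, adjusted p = 0.0519), knockout distal library 1 (-3.10, 0.0535) or WT distal library 2 (-2.87, 0.0578). Abca1, which exports cholesterol to lipoproteins and is on no list described here, had -2.77 ± 0.53 (adjusted p = 0.0208) and was called in 8 of the 12 fits without 1 library, not without knockout proximal library 3, knockout distal library 1, or WT distal libraries 1 and 2 (-2.71 to -2.55, largest adjusted p 0.0695).

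Scd1 (chr19:44394451-44407709, minus strand), the desaturase that makes monounsaturated fatty acids, moved in opposite directions. It rose in the distal colon, from 17.0, 11.03 and 8.49 CPM in WT to 33.5, 30.2 and 40.0 CPM in knockout, and fell in the proximal colon, from 36.5, 89.99 and 34.9 to 16.8, 14.7 and 12.7 CPM. Neither pair of groups overlapped. The effects were 1.504 ± 0.338 and -1.86 ± 0.34, with a difference of -3.37 ± 0.48 (adjusted p = 0.00266). Gbe1, the glycogen branching enzyme, fell in both segments, from 14.3 ± 1.38 to 9.13 ± 1.16 CPM (SD, n = 3) in distal and from 44.0 ± 5.83 to 8.68 ± 1.14 CPM in proximal colon. Its difference between segments was -1.70 ± 0.23 (adjusted p = 0.00257).

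Of 37 tested genes of fatty acid oxidation and targets of the PPAR receptors, 3 were called lower (Vnn1, Pdk4 and Ppara) and none higher, with a median of -0.09, and the proximal colon had 15 members lower and none higher against 8 lower and 2 higher in the distal colon. Ppara, a nuclear receptor that switches on fatty acid oxidation, stood at 40.8, 25.1 and 49.1 CPM in WT proximal and 9.76, 11.5 and 9.68 in knockout proximal libraries, with -1.66 ± 0.38 between segments (adjusted p = 0.0490). Pdk4, which restrains glucose oxidation, had -2.42 ± 0.49 (adjusted p = 0.0280), and Vnn1, a pantetheinase of the cell surface, had -3.14 ± 0.62 (adjusted p = 0.0239). None of the 3 was secure: Vnn1 and Pdk4 were called in 6 of the 12 fits without 1 library and Ppara in 1, that without WT proximal library 2 (-1.88), its other values running up to -1.44 (adjusted p up to 0.121). Pdk4 was lost without WT proximal library 2 (-2.39, adjusted p = 0.0501), WT distal libraries 1 and 2, knockout proximal libraries 1 and 2 and knockout distal library 2, at values from -2.39 to -1.70. Vnn1 was lost without knockout proximal libraries 1 and 3, knockout distal libraries 1 and 3 and WT distal libraries 2 and 3, at values from -3.23 to -2.76 (adjusted p up to 0.0760).

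Of 57 tested enzymes that modify and clear foreign compounds 5 were called lower and none higher, 8.77% against 0.644% of all tested genes. The median was -0.54, and 42 lay below 0, against 8898 of all 17692 tested genes. There were 20 lower and 3 higher at an unadjusted p under 0.05, against 1014 and 627 of the 17692. The proximal colon had 33 members lower and none higher, and the distal colon 20 lower and 2 higher. Summed over the list, WT proximal libraries held 22470 to 28300 CPM and knockout proximal libraries 9690 to 14110 CPM, while the distal ranges were 7313 to 12180 and 5939 to 7084 CPM.

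Sult1c2 (chr17:53829637-53846339, minus strand), a sulfotransferase, stood at 30.0, 29.0 and 22.7 CPM in WT distal, 21.2, 28.0 and 23.5 in knockout distal, 58.5, 82.3 and 48.6 in WT proximal, and 19.4, 19.4 and 17.4 in knockout proximal libraries. Only the proximal groups were apart, and the difference between segments was -1.58 ± 0.26 (adjusted p = 0.00792). Ugt1a1, the glucuronyl transferase that conjugates bilirubin, measured 62.3, 61.6 and 71.4 CPM in WT proximal and 17.4, 17.7 and 11.03 CPM in knockout proximal libraries, with all distal libraries between 1.01 and 5.36 CPM. Its difference was -2.81 ± 0.50 (adjusted p = 0.0126), and since it shares exons with the other Ugt1a genes, its counts could be split among them. Ces1d, a carboxylesterase, fell in both segments, from 20.0 ± 0.972 to 3.64 ± 0.168 CPM in distal and from 189 ± 30.8 to 8.90 ± 1.24 CPM in proximal colon, with a difference of -1.95 ± 0.36 (adjusted p = 0.0148) that was lost without knockout proximal library 3 (-1.85, adjusted p = 0.0514).

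Cbr3, a carbonyl reductase, had -2.28 ± 0.47 (adjusted p = 0.0282) and kept its call in 1 of the 12 fits, that without WT proximal library 3, at values from -2.47 to -2.06 over the 12. Cyp3a25, a cytochrome P450 of the intestine and liver, had no count in WT distal libraries and 0.327, 0 and 0 CPM in knockout distal libraries, against 14.8, 20.4 and 18.6 in WT proximal and 0.401, 0.143 and 0.174 in knockout proximal libraries. The fitted -10.29 ± 2.08 (adjusted p = 0.0293) depends on the prior count, since 1 group is at 0, and with that group at a floor of 3 counts the value was -7.21. The call was lost without knockout proximal library 3, knockout distal library 1 (-6.21, adjusted p = 1) or any WT distal library. Sis, sucrase-isomaltase of the brush border, had 147, 157 and 124 CPM in WT proximal and 2.34, 2.86 and 2.22 CPM in knockout proximal libraries, with all 6 distal libraries under 1 CPM. Its -4.37 ± 0.89 (adjusted p = 0.0278) was lost without any of 7 libraries, which were the 3 WT distal, knockout proximal 1 and 3, and knockout distal 2 (-3.48, adjusted p = 0.313) and 3. Paralogs of the cytochromes and carboxylesterases are alike in sequence, so these values are uncertain where reads could map to more than 1 copy.

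**Figure D3:**
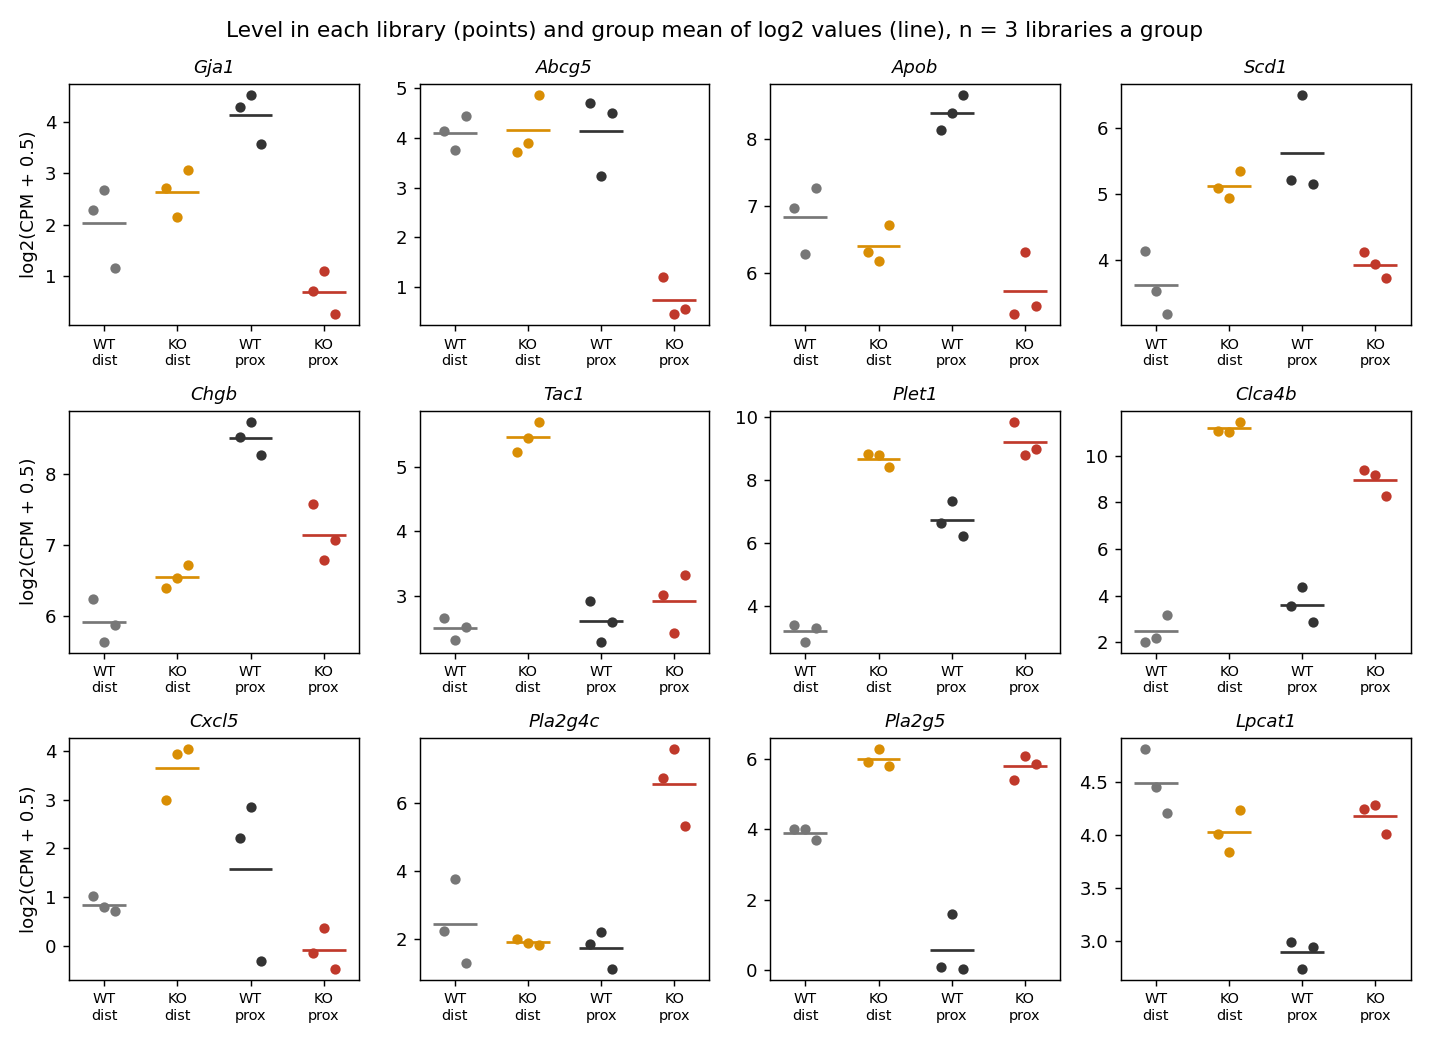
Level of 12 of the called genes as log2(CPM + 0.5) in each of the 12 libraries (points) with the mean of each group (line), WT and FIP1 knockout (KO), distal and proximal. The knockout proximal libraries of Gja1 and Abcg5 lie below all other libraries, and those of Pla2g4c lie above them.

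Gja1 (chr10:56377330-56402513, plus strand), the gap junction protein connexin 43, had the largest of the negative differences among genes called in all 12 fits without 1 library, apart from Mobp, Gria1 and Cxcl5. It stood at 4.36, 5.91 and 1.74 CPM in WT distal, 6.06, 3.96 and 7.84 in knockout distal, 19.0, 22.5 and 11.3 in WT proximal, and 1.14, 1.65 and 0.697 in knockout proximal libraries. The distal groups overlapped and the proximal groups did not. The effect was 0.58 ± 0.42 in distal and -3.95 ± 0.48 in proximal colon, and -4.53 ± 0.63 between segments (adjusted p = 0.00266). The highest group in WT was thus the lowest in the knockout.

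Enteroendocrine cells are the sensory cells of the epithelium that release peptides into the blood. Of 27 tested genes of these cells, 4 were called lower (Cpe, Chgb, Tac1 and Pcsk1) and none higher, 14.8% against 0.644% of all tested genes. In the list 24 lay below 0, against 8898 of all 17692 tested genes, and the median was -1.28. Without adjustment, 15 were lower and none higher at p under 0.05, against 1014 and 627 of the 17692. In the proximal colon 12 members fell and none rose, while in the distal colon 2 rose and 2 fell. The summed level of the list was 824 to 1143 CPM in WT proximal and 368.9 to 480.2 CPM in knockout proximal libraries, and 290.7 to 347.6 and 349.3 to 386.5 CPM in WT and knockout distal libraries. In bulk RNA, fewer cells of a type and less RNA per cell cannot be told apart.

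Chgb (chr2:132781278-132795079, plus strand) encodes chromogranin B of hormone granules. It measured 75.0, 49.4 and 58.1 CPM in WT distal, 84.1, 92.5 and 105 in knockout distal, 367, 425 and 306 in WT proximal, and 190, 110 and 134 in knockout proximal libraries. Both pairs of groups were apart, in opposite directions, although the distal difference of 0.62 ± 0.24 did not pass the test on its own. The difference between segments was -1.96 ± 0.34 (adjusted p = 0.00958). Cpe, the carboxypeptidase that trims prohormones, had the same form, at 11.6, 7.21 and 13.2 CPM in WT distal, 17.1, 18.8 and 17.5 in knockout distal, 18.5, 43.3 and 15.2 in WT proximal, and 8.89, 5.58 and 8.02 in knockout proximal libraries (-2.50 ± 0.42, adjusted p = 0.00869).

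Tac1, the precursor of substance P, differed through the distal colon instead. It rose from 5.84, 4.47 and 5.22 CPM in WT to 37.3, 43.3 and 51.5 CPM in knockout distal libraries, a change of 3.08 ± 0.34. The proximal libraries held 7.11, 4.39 and 5.55 CPM in WT and 7.55, 4.87 and 9.54 CPM in knockout, and the groups overlapped. The difference between segments was -2.72 ± 0.47 (adjusted p = 0.00958). Pcsk1, a prohormone convertase, had -1.77 ± 0.38 (adjusted p = 0.0368) and was lost without any of 7 libraries, among them WT proximal library 2 (-1.41, adjusted p = 0.0926), the 3 WT distal libraries, knockout proximal 1 and knockout distal 1 and 2, at values from -1.83 to -1.41. The hormones secretin (Sct, -1.97 ± 0.46, adjusted p = 0.0597) and proglucagon (Gcg, -1.37 ± 0.37, adjusted p = 0.111) were negative and did not pass.

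A set of genes rose with the knockout in both segments, but more in the distal colon, where WT levels were lowest. Plet1 (chr9:50494525-50505482, plus strand), a surface protein of epithelial progenitors, stood at 10.1, 6.85 and 9.49 CPM in WT distal, 452, 442 and 337 in knockout distal, 99.0, 161 and 74.9 in WT proximal, and 917, 442 and 500 in knockout proximal libraries. The rise was 5.53 ± 0.33 in distal and 2.47 ± 0.28 in proximal colon, a difference of -3.06 ± 0.39 (adjusted p = 0.00209). Plet1os, a transcript annotated on the opposite strand and overlapping Plet1, had -3.23 ± 0.38 (adjusted p = 0.00125). The library strand is not stated, so reads of the pair cannot be told apart.

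Clca4b (chr3:144910921-144932529, minus strand), a secreted regulator of chloride conductance, went from 3.57, 4.04 and 8.56 CPM in WT to 2114, 2051 and 2800 CPM in knockout distal libraries, and from 11.4, 19.9 and 6.75 to 673, 582 and 305 CPM in proximal libraries. Its rise was 8.75 ± 0.50 in distal and 5.37 ± 0.43 in proximal colon (-3.38 ± 0.54, adjusted p = 0.00464). The neighbouring and similar Clca4a had -1.57 ± 0.48 and did not pass (adjusted p = 0.180). Sulf2, which removes sulfate groups from heparan sulfate, rose from 4.32 ± 0.779 to 34.6 ± 4.18 CPM in distal and from 17.5 ± 3.58 to 43.0 ± 4.28 CPM in proximal colon (-1.70 ± 0.26, adjusted p = 0.00389). Casp12, an inflammatory caspase, rose from 0.197 ± 0.0509 to 5.68 ± 1.14 CPM in distal and from 2.003 ± 0.296 to 7.503 ± 1.35 CPM in proximal colon (-2.87 ± 0.46, adjusted p = 0.00464). Eif4e3, a cap-binding factor, had -2.24 ± 0.35 (adjusted p = 0.00464). In each of these genes the knockout brought the segments closer than they were in WT, apart from Clca4b, which ended higher in the distal colon.

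Car12, a carbonic anhydrase of the cell surface that takes part in acid and bicarbonate transport, rose only in the distal colon, from 11.5, 14.0 and 13.0 to 64.1, 70.8 and 32.2 CPM, while the proximal libraries held 110, 85.8 and 157 CPM in WT and 122, 149 and 99.1 CPM in knockout. The difference was -2.05 ± 0.36 (adjusted p = 0.0112). The same form held for Ncoa7, a nuclear receptor coactivator (-3.12 ± 0.52, adjusted p = 0.00792), and for Chn2, a protein that turns off the GTPase Rac (-1.95 ± 0.29, adjusted p = 0.00330). Mpp1, a membrane scaffold protein, rose in the distal colon from 15.5 ± 1.29 to 29.7 ± 6.02 CPM and fell in the proximal colon from 76.0 ± 9.46 to 35.3 ± 10.1 CPM (-2.04 ± 0.30, adjusted p = 0.00318). In the list of ion and water transport genes as a whole, 2 of 42 were called lower (Clca4b and Car12), 1 higher (Fxyd4), and the median was 0.05.

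Secreted defence genes split in both directions. Of 32 tested on the antimicrobial list, 1 was called lower (Reg3g) and 2 higher (Ang4 and Itln1), and the median was -0.27. Reg3g, a lectin that kills Gram-positive bacteria, had 0, 0.288 and 1.00 CPM in WT distal, 285, 715 and 89.4 in knockout distal, 97.2, 77.8 and 43.9 in WT proximal, and 2053, 2484 and 1907 in knockout proximal libraries. The level was highest in the knockout proximal libraries, but the fold over WT was larger in the distal colon, where WT was near 0: 9.72 ± 0.79 against 4.88 ± 0.58, a difference of -4.84 ± 0.91 (adjusted p = 0.0171). It was lost without WT distal library 1 (-4.19, adjusted p = 0.0540) or 2 (-4.64, 0.0695). The similar Reg3b had -4.36 ± 1.01 and did not pass (adjusted p = 0.0549), and reads of the pair could be split between them.

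Ang4, an antimicrobial ribonuclease of Paneth and goblet cells, fell in the distal colon from 436, 519 and 308 CPM in WT to 1.47, 4.95 and 7.66 CPM in knockout. In the proximal colon the WT libraries held 75.8, 271 and 31.5 CPM and the knockout libraries 26.3, 337 and 21.5 CPM, so that the groups overlapped and library 2 was high in each. The difference between segments was 6.53 ± 1.30 (adjusted p = 0.0258). It was lost without knockout proximal library 2 (4.11, adjusted p = 0.0516), knockout distal library 1 (6.06, 0.0767) or 2 (6.61, 0.0629), WT proximal library 1 (6.27, 0.0559) or WT distal library 2 (6.35, 0.0613). Itln1, the lectin intelectin 1, had 8.79, 12.04 and 4.55 CPM in WT distal, 0.709, 1.48 and 1.42 in knockout distal, 3.72, 4.94 and 0.750 in WT proximal, and 3.01, 34.1 and 10.4 in knockout proximal libraries. Its difference of 5.19 ± 1.00 (adjusted p = 0.0205) was lost without knockout distal library 1 (4.89, adjusted p = 0.0654) or WT distal library 2 (4.85, 0.0613). Goblet cell and mucus genes as a list had no call among 31 tested. Their median was -0.10 in the fit, and 0.10 when taken from counts pooled over each group with a floor of 3 counts. At an unadjusted p under 0.05 there were 3 higher and 1 lower among them.

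Of 29 tested cytokine and chemokine genes 3 were called lower (Cxcl5, Ccl7 and Cxcl1) and none higher, with a median of -0.23. All 3 encode chemokines that attract neutrophils or monocytes and rose in the distal colon. Over the list, 11 members rose and 2 fell in the distal colon, and 5 rose and 4 fell in the proximal colon. Cxcl5 (chr5:90759360-90761624, plus strand) stood at 1.54, 1.23 and 1.14 CPM in WT distal, 7.42, 14.8 and 15.9 in knockout distal, 4.12, 6.70 and 0.300 in WT proximal, and 0.401, 0.787 and 0.218 in knockout proximal libraries. The effect was 3.28 ± 0.64 in distal and -3.01 ± 0.73 in proximal colon, although 1 WT proximal library lay within the range of the knockout. The difference between segments was -6.29 ± 0.97 (adjusted p = 0.00389), and Cxcl5 was called in all 12 fits without 1 library.

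The other two chemokines were less secure. Cxcl1 had 1.17, 0.288 and 0.869 CPM in WT distal, 3.001, 7.09 and 9.51 in knockout distal, 5.74, 10.1 and 0.450 in WT proximal, and 0.735, 3.29 and 1.05 in knockout proximal libraries (-4.72 ± 1.07, adjusted p = 0.0484), and was called in 2 of the 12 fits, those without knockout proximal library 2 or WT proximal library 3. Its values over the 12 fits ran from -5.58 to -3.93, the latter without WT proximal library 2. Ccl7, at under 6 CPM in every library, had -6.42 ± 1.39 (adjusted p = 0.0368) and was called in the 2 fits without WT proximal library 3 or WT distal library 1, with -5.83 (adjusted p = 0.0926) without WT proximal library 2. Ccl2, just outside the threshold, had -6.24 ± 1.43 (adjusted p = 0.0526). Only 3 of 11 neutrophil markers passed the filter. They summed to 77.0 to 171 CPM in WT distal, 202.7 to 240 in knockout distal, 0.0750 to 2.20 in WT proximal and 15.1 to 15.8 CPM in knockout proximal libraries. Ly6g, described next, made up most of each sum and nearly all of it in the distal libraries, so the sums are not those of a panel. The part of neutrophils in the result was not tested.

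Ly6g, a surface protein used as a neutrophil marker, was itself called higher. It had 134, 76.8 and 171 CPM in WT distal, 232, 197 and 225 in knockout distal, 0.323, 1.87 and 0.0750 in WT proximal, and 9.09, 11.7 and 12.1 in knockout proximal libraries. The rise in the proximal colon was 4.05 ± 0.54 and the distal 0.78 ± 0.35 did not pass, with 3.28 ± 0.66 between segments (adjusted p = 0.0273). The call was lost without any of 7 libraries (knockout proximal 3, knockout distal 1 and 2, WT proximal 1 and 3, WT distal 1 and 3), at values from 2.67 to 3.32.

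Interferon-stimulated genes rose in both segments, 44 of 50 tested in the distal and 42 in the proximal colon with none lower in either. In the difference between segments 1 was called lower (Ifi47) and 1 higher (Ifi27l2a), 4% of the list against 0.644% of all tested genes. In the list 33 lay below 0, against 8898 of all 17692 tested genes, and the median was -0.28. At an unadjusted p under 0.05, 10 were lower and 2 higher, against 1014 and 627 of the 17692. Ifi47 (chr11:49076587-49096974, plus strand), a GTPase induced by interferon gamma, stood at 1.11, 1.88 and 2.01 CPM in WT distal and 79.9, 60.0 and 82.9 in knockout distal libraries, and at 7.68, 19.0 and 14.2 in WT proximal and 88.1, 59.7 and 70.0 in knockout proximal libraries. The knockout levels overlapped between segments, and the WT levels did not. The rise was 5.49 ± 0.39 and 2.42 ± 0.32, a difference of -3.06 ± 0.48 (adjusted p = 0.00444).

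Ifi27l2a differed the other way, with 0.553, 0.721 and 0.468 CPM in WT distal, 2.29, 1.90 and 1.85 in knockout distal, 0.0808, 0.110 and 0 in WT proximal, and 4.21, 3.22 and 3.40 in knockout proximal libraries (3.99 ± 0.82, adjusted p = 0.0282). Its values ran from 3.38 to 4.50 over the 12 fits without 1 library, and it was called in 3, those without knockout proximal library 2, WT proximal library 2 or WT distal library 3. Ddx60, an RNA helicase of the antiviral response that is named here after its values were seen, rose from 20.0 ± 3.999 to 133 ± 4.78 CPM in distal and from 75.0 ± 31.5 to 143 ± 40.1 CPM in proximal colon (-1.80 ± 0.37, adjusted p = 0.0291). It was called in 5 of the 12 fits and lost without WT proximal library 2 (-1.41, adjusted p = 0.0648), WT distal libraries 1 and 2, knockout proximal libraries 1 and 3 and knockout distal libraries 1 and 2. Ifit1 (-1.98 ± 0.52, adjusted p = 0.103), an inhibitor of viral translation, and Ifit3b (-2.06 ± 0.60, adjusted p = 0.149) did not pass. H2-T3, a non-classical MHC class I protein of the gut epithelium, rose in the distal colon from 5.90 ± 0.224 to 15.9 ± 3.46 CPM and fell in the proximal colon from 116 ± 22.04 to 62.5 ± 3.15 CPM (-2.31 ± 0.35, adjusted p = 0.00330), and may share reads with other MHC class I genes.

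The promoters of an interferon-induced gene called in every such fit (Ifi47), of a further interferon-induced gene (Ddx60) and of a chemokine (Cxcl1) are shown because these genes rose in the distal colon together while differing between segments. They are RefSeq's, on GRCm38.p6, from 250 bases before to 50 bases after the start of the gene, all on the plus strand. Capitals mark matches to any of 3 motifs searched on both strands: the interferon-stimulated response element (GAAA, any 2 bases, GAAA), the gamma-activated site (TTC, any 3 bases, GAA) and the NF-kB site (GGGA, any 1 base, TTTCC).
Ifi47, chr11:49076337-49076636: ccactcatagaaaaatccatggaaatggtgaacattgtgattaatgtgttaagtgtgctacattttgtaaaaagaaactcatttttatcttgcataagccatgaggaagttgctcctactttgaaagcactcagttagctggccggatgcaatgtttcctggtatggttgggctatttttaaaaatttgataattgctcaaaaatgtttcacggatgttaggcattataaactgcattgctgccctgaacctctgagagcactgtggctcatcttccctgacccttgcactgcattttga
Ddx60, chr8:61927837-61928136: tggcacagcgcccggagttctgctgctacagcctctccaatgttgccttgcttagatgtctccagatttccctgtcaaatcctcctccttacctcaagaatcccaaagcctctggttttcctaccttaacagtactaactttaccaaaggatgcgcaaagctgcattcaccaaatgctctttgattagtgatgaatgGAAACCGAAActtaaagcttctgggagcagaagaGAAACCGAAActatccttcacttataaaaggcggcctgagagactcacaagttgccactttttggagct
Cxcl1, chr5:90890995-90891294: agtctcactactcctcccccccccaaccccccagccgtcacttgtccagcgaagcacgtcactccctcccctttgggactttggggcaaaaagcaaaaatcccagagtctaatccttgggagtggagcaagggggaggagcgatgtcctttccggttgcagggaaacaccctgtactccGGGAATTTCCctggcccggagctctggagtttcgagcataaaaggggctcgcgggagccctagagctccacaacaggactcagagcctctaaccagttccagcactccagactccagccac
Ddx60 held 2 response elements, beginning at -53 and -19 from the start, Cxcl1 held 1 NF-kB site beginning at -71, and Ifi47 held no match in this window. Of 32851 promoters in the table, 3.44% held the response element, 8.3% the gamma-activated site and 0.411% the NF-kB site. The table had a promoter for 87 of the 114 called genes.

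Genes of antigen presentation and of immune cells had few or no calls. Of 11 tested MHC class II genes none was called and the median was 0.88, with 4 higher and none lower at an unadjusted p under 0.05. Cd74, the invariant chain of MHC class II, stood at 9.10, 19.2 and 40.7 CPM in WT distal, 904, 585 and 853 in knockout distal, 5.49, 8.90 and 4.20 in WT proximal, and 984, 729 and 726 in knockout proximal libraries, with a difference between segments of 1.97 ± 0.52 that did not pass (adjusted p = 0.10). H2-Eb1 had 1.63 ± 0.49 (adjusted p = 0.162). Among 32 genes of T cells and innate lymphocytes none was called, with 3 lower and none higher at an unadjusted p under 0.05. Gzma, a granzyme of cytotoxic cells, had 0.123, 0.0721 and 0 CPM in WT distal, 4.75, 6.02 and 4.69 in knockout distal, 1.37, 1.76 and 1.42 in WT proximal, and 20.0, 19.1 and 9.24 in knockout proximal libraries, and its -2.70 ± 0.74 did not pass (adjusted p = 0.119).

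B cell and plasma cell genes rose in the distal colon for 16 of 23 tested and in the proximal colon for 4, with none lower in either. No member was called in the difference between segments, 3 were lower and none higher at an unadjusted p under 0.05, and the median was -1.20. Their summed level was 698.2 to 968.7 CPM in knockout distal and 233.1 to 686.4 CPM in knockout proximal libraries, against 206.8 to 243.1 and 172.7 to 196.6 CPM in WT, so the knockout ranges did not overlap but lay near each other. Ms4a1 (CD20, a B cell marker) read 12.7, 6.51 and 15.6 CPM in knockout distal and 0.668, 1.22 and 0.349 CPM in knockout proximal libraries, and its -2.06 ± 0.88 did not pass (adjusted p = 0.455). A larger number of passing genes in 1 segment does not show a difference between segments, and none was called here.

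**Figure D4:**
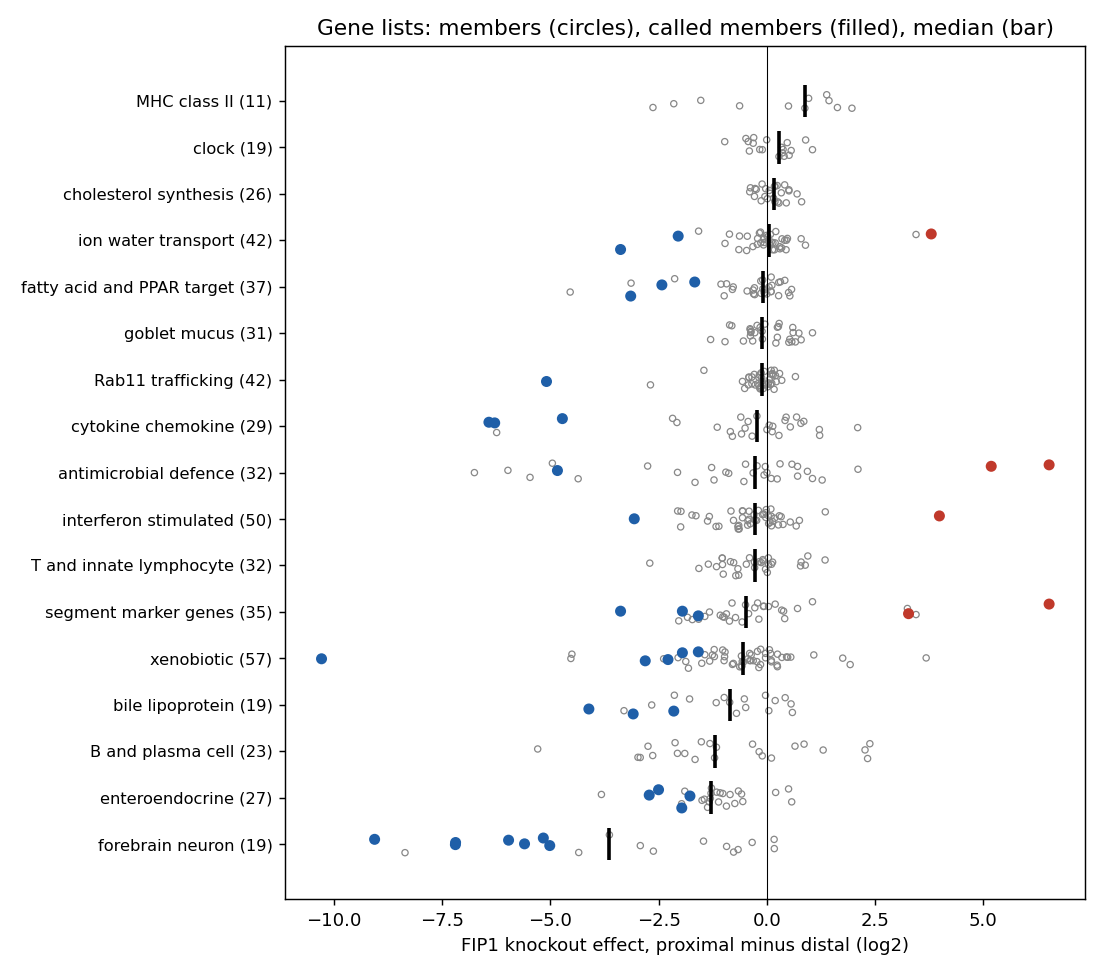
Difference of the FIP1 knockout effect between segments (log2) for the tested members of each described list, with called members filled, other members as open circles and the median as a bar. The number of tested members follows each name, and the hormone list has its median at -1.28 with 4 called members, all negative.

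Of the higher genes, 4 were called in all 12 fits without 1 library, and 3 of these act on phospholipids. Pla2g4c (chr7:13324655-13360672, plus strand), a cytosolic phospholipase A2, had 4.18, 13.1 and 1.94 CPM in WT distal, 3.44, 3.13 and 3.03 in knockout distal, 3.07, 4.07 and 1.65 in WT proximal, and 107, 195 and 39.4 in knockout proximal libraries. It rose in the proximal colon only, by 5.31 ± 0.63, and the difference between segments was 6.30 ± 0.85 (adjusted p = 0.00257). Pla2g5 (chr4:138799244-138863482, minus strand), a secreted phospholipase A2, rose in both segments, from 15.5, 15.7 and 12.6 to 60.5, 77.7 and 55.1 CPM in distal and from 0.566, 2.53 and 0.525 to 42.2, 67.6 and 57.9 CPM in proximal colon. The knockout libraries of the segments overlapped, and the difference was 3.52 ± 0.52 (adjusted p = 0.00330).

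Lpcat1 (chr13:73467197-73516422, plus strand), which attaches a fatty acid to lysophosphatidylcholine and so rebuilds phospholipid, measured 27.6, 21.3 and 17.9 CPM in WT distal, 15.6, 13.8 and 18.3 in knockout distal, 7.43, 6.15 and 7.20 in WT proximal, and 18.4, 18.9 and 15.6 in knockout proximal libraries. The WT gap between segments was thus not seen in the knockout (1.83 ± 0.26, adjusted p = 0.00266). Aldh1l1 (chr6:90486427-90600203, plus strand), an enzyme of folate metabolism, stood at 70.4, 83.7 and 77.2 CPM in WT distal, 97.7, 80.9 and 110 in knockout distal, 13.3, 12.1 and 11.8 in WT proximal, and 44.6, 48.6 and 47.2 in knockout proximal libraries (1.59 ± 0.23, adjusted p = 0.00318). The grouping by phospholipids was seen in the values and not tested.

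Of 35 tested genes on a list of markers of either end of the mouse colon, 3 were called lower and 2 higher, and the median was -0.49. The other named higher genes were mostly higher in the WT distal colon. Fxyd4, a regulator of the sodium pump, fell in the distal colon from 36.0, 27.2 and 44.5 to 2.13, 2.47 and 2.96 CPM, with all proximal libraries under 1 CPM (3.80 ± 0.77, adjusted p = 0.0273). B3gnt7, a glycosyltransferase of keratan sulfate, fell from 389 ± 48.0 to 190 ± 39.2 CPM in distal and rose from 9.32 ± 3.89 to 22.5 ± 12.03 CPM in proximal colon (2.33 ± 0.48, adjusted p = 0.0282). Slc28a3, a nucleoside transporter, rose in both segments, from 8.03 ± 1.43 to 18.1 ± 6.43 and from 0.299 ± 0.315 to 4.24 ± 1.46 CPM (2.79 ± 0.62, adjusted p = 0.0402). Gjb5, a connexin, fell in the distal colon from 17.1 ± 5.50 to 4.67 ± 0.553 CPM (2.91 ± 0.63, adjusted p = 0.0363), and Palld, an actin-binding protein, and Slc22a15, an organic ion transporter, rose in the proximal colon, from 13.7 ± 2.31 to 27.1 ± 1.97 and from 6.53 ± 1.20 to 12.6 ± 2.14 CPM. Over the 12 fits without 1 library these were called in 7 (Fxyd4), 6 (B3gnt7), 4 (Slc28a3, Gjb5 and Palld) and 3 fits (Slc22a15). Each of the last 4 lost its call without knockout proximal library 1 or 3, or knockout distal library 1, among others, with an adjusted p of up to 0.119 (Slc28a3), 0.113 (Gjb5), 0.0987 (Palld) and 0.144 (Slc22a15). Fxyd4 was lost without knockout proximal library 1 (3.23, adjusted p = 0.153) or 3, knockout distal library 1, or WT distal library 1 or 3, and B3gnt7 without knockout proximal libraries 1 and 3 (1.98, adjusted p = 0.0958), knockout distal libraries 1 and 2, or WT distal libraries 1 and 2.

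The lists of cholesterol synthesis, clock and Rab11 genes had 0 or 1 call each. None of 26 cholesterol synthesis genes was called, with a median of 0.17, although 18 rose in the distal and 19 in the proximal colon: Fdps, an enzyme of the pathway, had 0.70 ± 0.44 (adjusted p = 0.709). None of 19 clock genes was called, with 10 lower in the distal and 5 in the proximal colon, and Arntl, the core activator, had 1.06 ± 0.42 (adjusted p = 0.384). At an unadjusted p under 0.05 there were 1 higher and none lower of the cholesterol genes, and 2 higher and 1 lower of the clock genes. Of 42 genes of Rab11 membranes and their carriers, 1 was called lower, Ehd3, a membrane-shaping protein of recycling endosomes, at under 3 CPM in every library (-5.11 ± 1.16, adjusted p = 0.0470). Ehd3 was called in 2 of the 12 fits, those without WT proximal library 1 or 3, and had -3.96 (adjusted p = 0.155) without WT proximal library 2. Tfrc, the recycling transferrin receptor, read 280, 283 and 186 CPM in WT distal, 1014, 864 and 916 in knockout distal, 244, 522 and 220 in WT proximal, and 526, 328 and 490 in knockout proximal libraries, and its -1.45 ± 0.42 did not pass (adjusted p = 0.143). Rab11a had -0.41 ± 0.25 (adjusted p = 0.702).

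A further group of lower genes belongs to neurons and glia. Of 19 tested forebrain genes 7 were called lower and none higher, and the median was -3.64. Both figures include WT proximal library 2, which carried forebrain transcripts, and they are not given without it. Of the 7, Grin2b and Syt1 lost their call when that library was left out. Mobp, a myelin protein, stood at 1.94, 9.45 and 1.72 CPM in WT proximal libraries, had no count in knockout proximal libraries, and lay between 0.468 and 0.742 CPM in all distal libraries (-9.06 ± 1.48, adjusted p = 0.0125). Since 1 group is at 0, that value depends on the prior count, and with that group at a floor of 3 counts it was -6.00. Gria1, a glutamate receptor subunit, had 1.94, 10.3 and 2.70 CPM in WT proximal and 0.0668, 0 and 0 CPM in knockout proximal libraries (-7.19 ± 1.21, adjusted p = 0.00806). Library 2 was the highest of the WT proximal libraries in each, yet without it Mobp had -7.86 (adjusted p = 0.0128), and both genes were called in all 12 fits without 1 library. Kif5a, a motor protein of axons, showed the same pattern, with 4.85, 28.9 and 7.12 CPM in WT proximal and 0.869, 0.644 and 0.392 CPM in knockout proximal libraries (-4.57 ± 0.85, adjusted p = 0.0168). It was lost without knockout proximal library 3 (-4.29, adjusted p = 0.0579). Markers of enteric neurons and glia summed to 23.8, 67.1 and 27.1 CPM in WT proximal libraries 1, 2 and 3 and 6.01 to 13.0 CPM in knockout proximal libraries. Their distal sums were 14.4 to 21.3 (WT) and 10.8 to 17.6 CPM (knockout), and none of the 12 tested was called. The forebrain list summed to 400.5 to 498.1 CPM in WT and 252.1 to 290.5 in knockout proximal libraries. It was also lower in knockout distal libraries, at 335.1 to 344.8 against 439.7 to 493.3 CPM in WT. The part of neurons and glia in these results was not tested.

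Fn1, fibronectin of the extracellular matrix, had 2.03, 1.88 and 2.01 CPM in WT distal, 17.9, 6.84 and 14.8 in knockout distal, 5.17, 41.4 and 7.87 in WT proximal, and 4.21, 4.30 and 2.57 in knockout proximal libraries. It differed by -5.03 ± 0.95 (adjusted p = 0.0176), and by -3.56 (adjusted p = 0.0346) without WT proximal library 2. Fbln2, a matrix protein of basement membranes, had -4.55 ± 0.83 (adjusted p = 0.0148), and -3.84 (adjusted p = 0.0341) without that library. Both are on the list of fibroblast and matrix markers, of which 26 were tested. These 2 were called lower and none higher, 7.69% against 0.644% of all tested genes. In the list 21 of the 26 lay below 0, against 8898 of all 17692 tested genes, and the median was -1.20. At an unadjusted p under 0.05, 11 were lower and none higher, against 1014 and 627 of the 17692. In the distal colon 6 members rose and none fell, and in the proximal colon 1 rose and 2 fell. Their counts summed to 222.5 to 277 CPM in WT distal, 219.5 to 385 in knockout distal, 137.6 to 248.8 in WT proximal and 164 to 208.9 CPM in knockout proximal libraries, ranges that overlapped within each segment. In the proximal colon the overlap came from WT library 2, at 248.8 CPM. WT proximal libraries 1 and 3, at 137.6 and 144.6 CPM, lay below all knockout proximal libraries. The counts and the median of the list include library 2 and are not given without it. The part of such cells in these results was not tested. Fn1 was lost without knockout proximal library 1 or 3, knockout distal library 1, or WT distal library 1 or 2 (-5.11 to -4.76, largest adjusted p 0.0613), and Fbln2 without knockout proximal library 1, knockout distal library 1 or WT distal library 2 (largest adjusted p 0.0520).

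The FIP2 knockout has the same comparison with the same WT libraries, and 58 genes (0.328%) were called in it. Because the WT libraries are shared, the values of the 2 knockouts are set side by side and not correlated. For Gja1 the differences were -4.53 (FIP1) and -3.74 (FIP2), for Abcg5 -4.11 and -3.85, for Apob -2.15 and -2.36, for Scd1 -3.37 and -3.11, for Plet1 -3.06 and -3.03, for Clca4b -3.38 and -4.70, for Cxcl5 -6.29 and -6.16, for Ifi47 -3.06 and -3.34, for Pla2g5 3.52 and 2.85, and for Pla2g4c 6.30 and 2.26. A direct test, in which WT drops out, compared proximal minus distal colon between FIP1 and FIP2 knockout libraries. It called 20 genes (0.113%), 1 higher and 19 lower in FIP1. That fit takes no account of the pairing, although same-numbered distal and proximal libraries deviated together in both knockouts. With the number as a block 59 genes were called, 9 higher and 50 lower, among them 18 of the 20. For Pla2g4c this difference was 4.04 ± 0.84 without the block and did not pass (adjusted p = 0.0685), and 3.79 ± 0.50 with it, which passed (adjusted p = 0.00611).

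**Figure D5:**
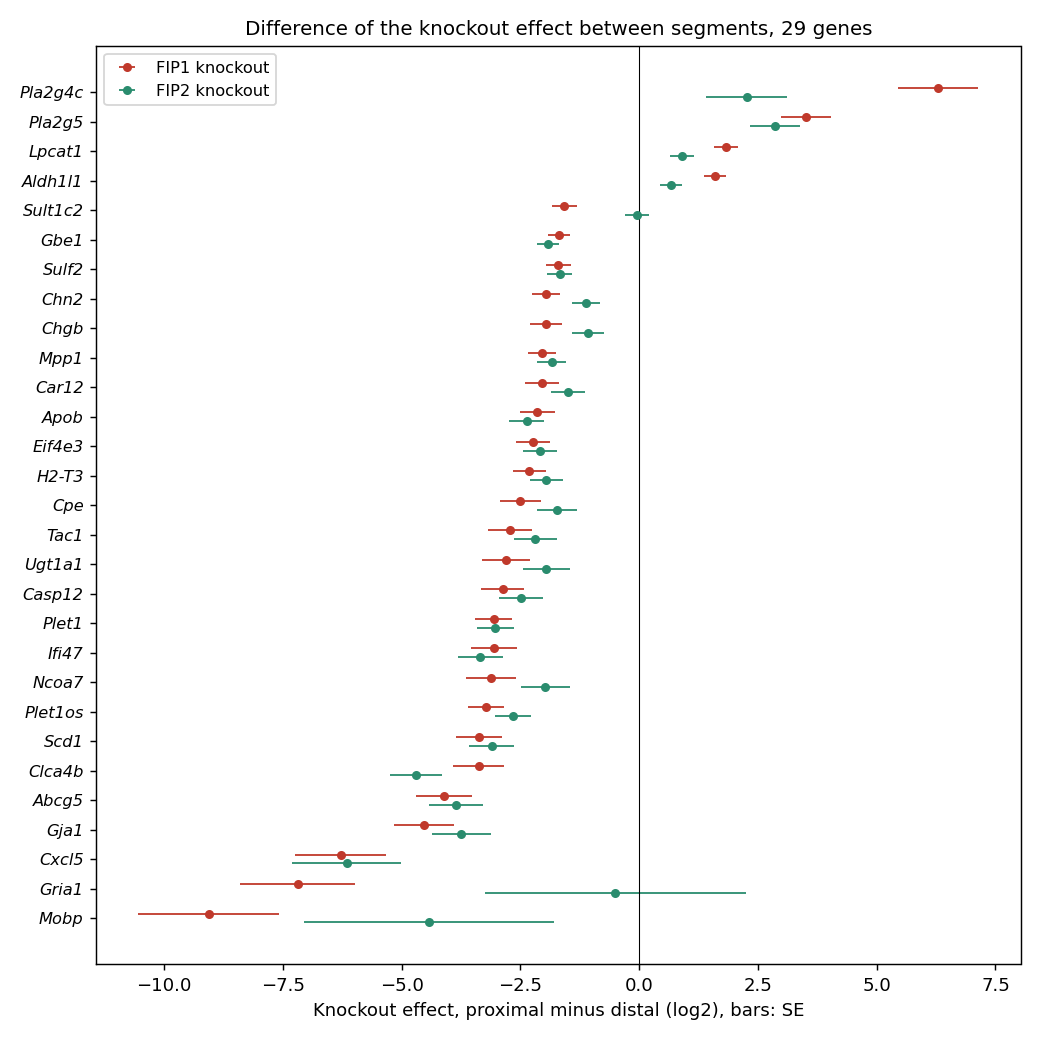
Difference of the knockout effect between segments (log2, with SE) for FIP1 knockout (red) and FIP2 knockout (green) in the 29 genes called whichever of the 12 libraries was left out. Both comparisons use the same WT libraries, and for Sult1c2 FIP1 lies at -1.58 and FIP2 at -0.04.

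Sult1c2 was 1 of 2 genes, with Ppp1r16b, that were called both in the FIP1 difference between segments and, without the block, against FIP2. With the block 9 genes were. The FIP2 knockout libraries held 20.7, 26.1 and 18.03 CPM in distal and 48.8, 46.8 and 50.1 CPM in proximal colon, so that the proximal excess seen in WT remained there and was lacking in FIP1 knockout, a difference of -1.54 ± 0.26 (adjusted p = 0.0257). That call was lost without any of 8 libraries, FIP2 proximal 2 and 3, FIP2 distal 1 and 3, FIP1 proximal 1 and 3, and FIP1 distal 1 and 3, at values from -1.62 to -1.42 (Sult1c2 FIP1 minus FIP2 interaction, largest adjusted p 0.0904). Ggta1, which makes the alpha-gal sugar, had the smallest adjusted p of the 20. Its proximal libraries held 209, 144 and 252 CPM in FIP2 knockout and 0.869, 2.29 and 0.872 CPM in FIP1 knockout, against 1.39 to 2.77 and 1.48 to 3.001 CPM in the distal libraries (-7.56 ± 0.76, adjusted p = 0.000107). Chst3, a sulfotransferase of chondroitin, had -6.31 ± 1.13 (adjusted p = 0.0327), and Hoxb6, a homeobox transcription factor, -2.92 ± 0.51 (adjusted p = 0.0257).

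Igha and Ms4a1, of the B cell and plasma cell list, and Ptprc, of the lymphocyte list, were also among the 20. Igha, the heavy chain of immunoglobulin A, stood at 315, 182 and 296 CPM in FIP1 distal, 127, 190 and 24.8 in FIP1 proximal, 28.6, 29.3 and 15.8 in FIP2 distal, and 326, 213 and 276 in FIP2 proximal libraries (-4.69 ± 0.87, adjusted p = 0.0388). In FIP2 knockout the proximal libraries lay above the distal ones. In FIP1 knockout the libraries of the segments overlapped, and proximal minus distal colon, at -1.22 ± 0.59, did not pass (adjusted p = 0.316). Ptprc (CD45, on all leukocytes) read 47.0, 27.1 and 56.3 CPM in FIP1 distal, 26.3, 27.1 and 18.2 in FIP1 proximal, 27.8, 30.6 and 24.8 in FIP2 distal, and 65.6, 67.4 and 81.1 in FIP2 proximal libraries (-2.23 ± 0.37, adjusted p = 0.0208). Ms4a1 (-3.93), Ighg2c (-5.58), Igkv10-96 (-4.77), Klhl6 (-3.34), St8sia4 (-3.15), Ppp1r16b (-3.02), Dock2 (-3.02) and Itga4 (-2.76) were lower as well, and these genes, like those above for this contrast, were chosen after their values were seen. Each of them was called with the block too, where Cd22 (-5.87 ± 0.66, adjusted p = 0.00222), a surface protein of B cells, passed as well. Without the block Cd22 had adjusted p = 0.0759. The count without the block fell to 1 without FIP2 proximal library 3 or without FIP1 proximal library 1, distal library 1 or distal library 3, and to 2 without FIP2 distal library 1. Most of these calls were thus lost when 1 of those libraries was left out. Whether the values of that library or the smaller number of libraries led to the loss was not tested. Ggta1 was called in each of the 12 fits without 1 library, with values from -8.12 to -7.28 (Ggta1 FIP1 minus FIP2 interaction).

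At the edge of the threshold, the last 3 genes inside were Grin2b (-5.16, adjusted p = 0.0484), Cxcl1 (-4.72, 0.0484) and Ppara (-1.66, 0.0490), and the first 3 outside were Ccl2 (-6.24, 0.0526), Enpp2 (-4.001, 0.0533) and Rapgef4 (-1.75, 0.0533).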

How the data were processed

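RNA from 18 colonic epithelium libraries, 3 a group, was sequenced by the authors with reads of 150 nt. Per the submitters' processing notes, the tools were STAR 2.5, TopHat, HTSeq 0.6.1 and DESeq2, with builds GRCm38 and mm10. Their roles and order are not given in the sources used here. The deposited table of raw counts per gene was the main data. The deposited FPKM values served only as an alternative.

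With edgeR 4.0.16 in R 4.3.3, genes were filtered (filterByExpr), scaled (TMM) and fitted in 1 quasi-likelihood model to all 18 libraries. Contrasts were tested over 17692 genes and adjusted by the Benjamini-Hochberg method. The SE is the log2 difference divided by the square root of its F statistic. Values at the floor come from counts pooled over each group in place of the fit, with groups under 3 counts set at 3. Annotation was GENCODE M21, in which 54409 of the IDs were found. The alternatives were relative log expression scaling, other filters, the compared libraries alone, the library number as a block, DESeq2 1.42.0, limma 3.58.1 on log2(FPKM + 1) or log2(FPKM + 0.1), no mitochondrially encoded genes, and each library left out. Figures were drawn with matplotlib 3.10.9.

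The test was run on simulated data of 16923 genes with 100 changed at each size, drawn from genes averaging at least 1 CPM in WT, with 5 false calls. No libraries of a group were duplicates: the chi-square per gene between them was at least 13.51. For the 2 knockouts, residuals of same-numbered distal and proximal libraries correlated at 0.242, 0.213 and 0.127 (FIP1) and 0.469, 0.317 and 0.331 (FIP2). Each lay above every unlike-numbered pair of its genotype, so the numbers appear to pair these libraries. The numbers come from the labels. The fit set for that contrast has no block, and values with the block are given beside its results where they change a call.

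Genes were named by this rule: Rab11fip1 and Rab11fip2; the 15 largest differences each way among called genes that code for protein, average 1 CPM or more, were called without WT proximal library 2 and had knockout and WT libraries apart in at least 1 segment; and up to 4 members of each list with 3 or more called members or preset for description. Others were chosen after their values were seen. The comparison, the lists and the members were chosen with earlier results of these data known. A result that is withheld is not reported here.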

Additional observations from a re-analysis of the deposited data

Results flagged for a closer look

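Each gene here had a FIP1 knockout effect that differed between the distal and the proximal colon by the test of the difference itself (adjusted p under 0.05, edgeR), and the values are those differences on the log2 scale. Transcripts of neurons and glia were lower, which were Mobp (-9.06), Slc24a2 (-8.94), Gria1 (-7.19), Grin2b (-5.16), Camk2a (-5.01), Kif5a (-4.57) and Slc1a2 (-4.13). The first 2 have no count in knockout proximal libraries, and at a floor of 3 counts their values were -6.00 and -5.92. Over the 12 fits without 1 library Slc24a2 was called in 10 (lost without knockout proximal library 3 or WT distal library 2), Slc1a2 in 8 (lost without those or knockout distal library 2 or WT distal library 3), Camk2a in 6 (lost without knockout proximal library 2 or 3, knockout distal library 1 or any WT distal library) and Grin2b in 2, those without WT proximal library 1 or 3. In lipid, bile acid and foreign compound handling and in digestion the values were Cyp3a25 (-10.29), Sis (-4.37), Abcg5 (-4.11), Scd1 (-3.37), Vnn1 (-3.14), Cubn (-3.09), Ugt1a1 (-2.81), Abca1 (-2.77), Pdk4 (-2.42), Cbr3 (-2.28), Apob (-2.15), Ces1d (-1.95), Gbe1 (-1.70), Ppara (-1.66) and Sult1c2 (-1.58). Hormone genes had Tac1 (-2.72), Cpe (-2.50), Chgb (-1.96) and Pcsk1 (-1.77). Chemokine, interferon, antigen presentation and defence genes had Ccl7 (-6.42), Cxcl5 (-6.29), Cxcl1 (-4.72), Trank1 (-5.62), Reg3g (-4.84), Ifi47 (-3.06), H2-T3 (-2.31), Ddx60 (-1.80), Ifi27l2a (3.99), Itln1 (5.19), Ang4 (6.53) and Ly6g (3.28). Phospholipid and folate enzymes had Pla2g4c (6.30), Pla2g5 (3.52), Lpcat1 (1.83) and Aldh1l1 (1.59). The remaining genes were Trank1 (-5.62), Ehd3 (-5.11), Fn1 (-5.03), Fbln2 (-4.55), Gja1 (-4.53), Clca4b (-3.38), Plet1os (-3.23), Ncoa7 (-3.12), Plet1 (-3.06), Casp12 (-2.87), Ppp1r16b (-2.71), Eif4e3 (-2.24), Car12 (-2.05), Mpp1 (-2.04), Chn2 (-1.95), Sulf2 (-1.70), Palld (1.11), Slc22a15 (1.30), B3gnt7 (2.33), Slc28a3 (2.79), Gjb5 (2.91) and Fxyd4 (3.80). Trank1 was called in 8 of the 12 fits, not without knockout proximal library 1 or 3 or WT distal library 1 or 2, and Ppp1r16b in 4, those without knockout proximal library 2, knockout distal library 2, or WT proximal library 1 or 3.

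Between the knockouts, proximal minus distal colon in FIP1 less the same in FIP2 differed for Ggta1 (-7.56), Chst3 (-6.31), Ighg2c (-5.58), Igkv10-96 (-4.77), Igha (-4.69), Ms4a1 (-3.93), Klhl6 (-3.34), St8sia4 (-3.15), Ppp1r16b (-3.02), Dock2 (-3.02), Hoxb6 (-2.92), Itga4 (-2.76), Ptprc (-2.23) and Sult1c2 (-1.54). These values come from the fit without a block. The genes of both paragraphs are those singled out by the naming rule or by the robustness of their calls, or given elsewhere in the text, and their number follows from that choice.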

How the results depend on the processing

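Of the 114 genes called, relative log expression scaling, leaving out mitochondrially encoded genes and DESeq2 called all 114. The fit to the 12 compared libraries alone lost 48 of them, no filter on low counts 3, the replicate block 7, and a minimum of 10 CPM 13 of the 69 genes left. Limma lost 43 of 95 on log2(FPKM + 1), 52 of 95 on log2(FPKM + 0.1) and 72 of 114 on log2(FPKM + 1) without a filter. Leaving out 1 library lost 16 to 77. The counts of genes called, higher and lower were 644, 161 and 483 with no filter on low counts, 57, 13 and 44 at a minimum of 10 CPM in 3 libraries, 339, 74 and 265 with DESeq2, and 47, 6 and 41 with limma on log2(FPKM + 0.1). The fit to the 12 compared libraries alone had 10 higher. With limma on log2(FPKM + 1), 56 were lower, and without a filter 39 were higher. With a replicate block the counts were 262, 58 and 204. In WT, residuals of same-numbered distal and proximal libraries correlated at -0.0928, 0.153 and 0.273 (numbers 1, 2 and 3). Numbers 2 and 3 lay above every unlike-numbered WT pair and number 1 did not. Whether the numbers pair the WT libraries is therefore unclear, and the block is given as an alternative only. With 1 library left out the counts ran from 40 to 154 called, 5 to 23 higher and 30 to 135 lower. The total moved by over 1.5 times without knockout proximal library 1 (49) or 3 (44), knockout distal library 1 (46) or 2 (61), or WT distal library 1 (65), 2 (40) or 3 (69). None of the 114 changed direction in these alternatives, and 22 were called in every one that gave a value. The cause of these changes was not tested.

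The 20 genes that differed between FIP1 and FIP2 became 394 with no filter, 7 at 10 CPM, 50 with the compared libraries alone, 59 with the replicate block, 188 with DESeq2, 59 with limma on log2(FPKM + 1) and 73 without its filter. With 1 library left out they ran from 1 to 60, with 10, 1, 2, 6 and 12 without FIP2 proximal 2 and 3 and distal 1, 2 and 3, and 1, 1, 60 and 1 without FIP1 proximal 1 and distal 1, 2 and 3.

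Gzma, not called, turned from negative to 0.131 (Gzma interaction) with limma on log2(FPKM + 1), with and without a filter. Rab11fip2, not called, ran from -0.442 to 0.064 with 1 library left out (Rab11fip2 interaction), and was positive without knockout proximal library 1 (0.0406) or WT proximal library 2. Low counts limit genes under 1 CPM.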
